A study of Danio rerio with 2 samples.

Results

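The accessible sites of zebrafish chromosomes 3 and 12 were compared between neuroblastoma cells of MYCN transgenic and of MYC transgenic fish. All peaks that the deposited ATAC-seq peak lists place on these chromosomes of the danRer7 build were taken, 12577 of 146395 peaks in all. The MYCN list gave 5971 of its 68559 peaks and the MYC list 6606 of its 77836. ATAC-seq marks open chromatin by the insertion of sequencing adapters with the Tn5 transposase. Each transgene was represented by 1 library of 50000 EGFP-positive tumour cells, which were sorted by a dbh:EGFP reporter carried in both groups. The dbh promoter marks noradrenergic cells, since the dbh enzyme turns dopamine into noradrenaline. The promoter that drives either transgene, the age of the fish and the number of fish behind a library are not given in the sources used here. With 1 library per transgene no difference could be tested against the spread between tumours, so the values below describe 2 libraries. All intervals are 95% intervals and cover counting error only.

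MYCN and MYC are related transcription factors, and MYCN is the family member most often amplified in human neuroblastoma. Gain of the long arm of human chromosome 17 is another frequent change of the human tumour. An ancient genome duplication in fish left many human regions with a pair of zebrafish counterparts, and chromosomes 3 and 12 share much of the gene content of human chromosome 17. In RefSeq gene names of the assembly GRCz12tu, 145 pairs of genes that differ only by the final letter a or b had a copy on each of chromosomes 3 and 12. Among 223 combinations of chromosomes that count ranked 3, after 220 for chromosomes 16 and 19 and 170 for chromosomes 17 and 20. The pairs include hoxb1, hoxb5, hoxb6 and hoxb8, which pattern the body axis, the retinoic acid receptor gene rara, the thyroid hormone receptor gene thra, the neurotrophin receptor gene ngfr, the collagen gene col1a1 and the transcription factor gene sox9. The human counterparts of these examples lie on chromosome 17. Other genes of the list, such as ep300 and rac1, have human counterparts on other chromosomes, and no tally over the list was made. No gene was placed at a peak, since an annotation of danRer7 was not used here. The peak lists also hold no read coverage, so the number of copies of either chromosome was not measured.

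Over its whole length, chromosome 3 was close to the rest of the genome in the balance of the lists. Chromosome 12 leaned to MYCN when set against the genome, although MYC peaks were still the more numerous on it. Up to its last peak, chromosome 3 spanned 63.3 Mb with 3422 MYCN peaks (54.1 per Mb) and 3894 MYC peaks (61.5 per Mb). Chromosome 12 spanned 50.7 Mb with 2549 MYCN peaks (50.3 per Mb) and 2712 MYC peaks (53.5 per Mb). The medians over the other 23 chromosomes were 50.7 MYCN and 57.6 MYC peaks per Mb. Of the 25 chromosomes, chromosome 3 ranked 3 for MYCN density and 4 for MYC density, and chromosome 12 ranked 15 and 23. The ratio of MYC to MYCN peaks was 1.14 on chromosome 3 and 1.06 on chromosome 12, beside a median of 1.14 over the other 23 chromosomes (range 1.04 to 1.27).

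Shared peaks were those with an overlap of 1 bp or more in the other list, and the rest are called list-only (MYCN-only or MYC-only). On chromosome 3, 605 MYCN peaks were MYCN-only, which left 82.3% shared (81.0 to 83.6). On chromosome 12, 515 were MYCN-only, which left 79.8% shared (78.2 to 81.3). Over all chromosomes, 18.4% of MYCN peaks were list-only. Of the MYC peaks, 1115 on chromosome 3 were MYC-only, which left 71.4% shared (69.9 to 72.8). On chromosome 12, 689 were MYC-only, which left 74.6% shared (72.9 to 76.2), where 28.9% of all MYC peaks were list-only. Among list-only peaks, the MYC-only share was 64.8% on chromosome 3 (62.5 to 67.0) and 57.2% on chromosome 12 (54.4 to 59.99), against 64.1% genome-wide. The share on chromosome 12 ranked 23 of 25 from the top, and that on chromosome 3 ranked 11.

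The same order held for sites open in both libraries. For 2634 one-to-one overlapping pairs on chromosome 3 and 1941 on chromosome 12, the score of each peak was turned into a percentile of its own list, from 0 for the weakest to 100 for the strongest. The MYC percentile was then subtracted from the MYCN percentile. The genome-wide median of this difference was -2.66 points over 52912 pairs and was subtracted from every pair, so that a positive value marks a site ranked higher in MYCN than is usual and a negative value a site ranked higher in MYC. The median was -0.68 points on chromosome 3 (-1.68 to -0.038) and 1.57 points on chromosome 12 (1.12 to 2.24). The value of chromosome 12 was the second highest of the 25 chromosomes, whose other 23 members ran from -3.94 to 2.26 points. On chromosome 12, 316 pairs (16.3%) were ranked over 20 points higher in MYCN, against 13.7% of all pairs, and 260 (13.4%) were ranked over 20 points higher in MYC, against 16.5% of all pairs. On chromosome 3 these counts were 337 (12.8%) and 465 (17.7%).

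The average of chromosome 3 hid a long stretch that leaned to MYC between stretches that leaned to MYCN. In windows of 1 Mb, the median pair difference was below 0 in 26 consecutive windows from 12 to 38 Mb, in 11 of the 12 windows before them it was above 0, and in 22 of the 26 windows after them it was again above 0. The 26 windows were the longest such series towards MYC on any chromosome. The longest on each of the other 23 chromosomes ran from 3 to 24 windows, with a median of 13, and towards MYCN the longest of any chromosome was 25 windows, on chromosome 2. The 3 stretches were chosen by these pair differences after the values were seen. The border at 38 Mb is also where the MYC-only share of the chromosome changed most. The pair differences and the list-only shares in the stretches are therefore a description.

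**Figure D1:**
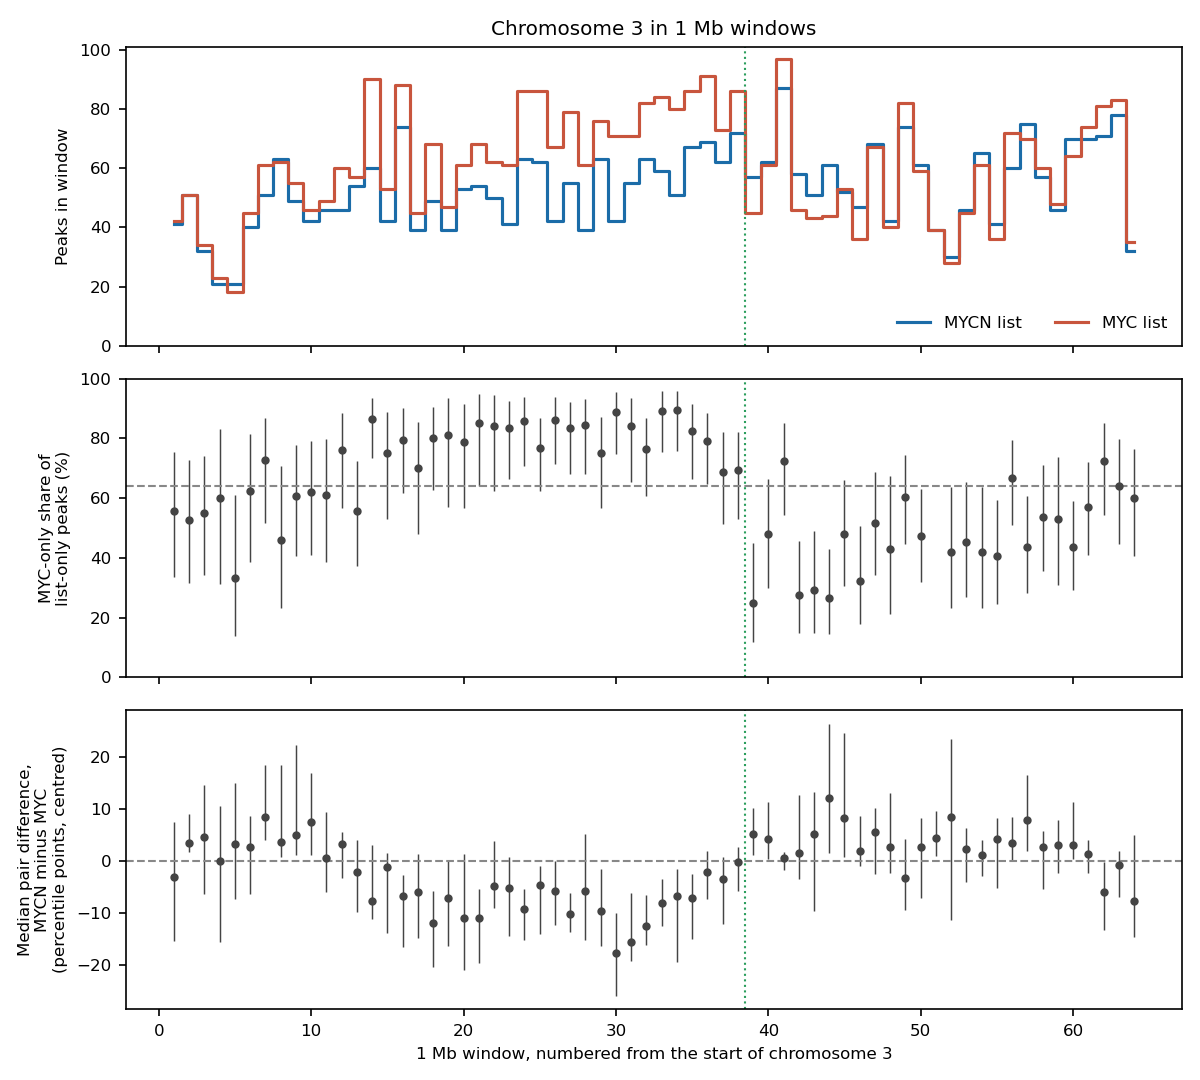
Chromosome 3 in windows of 1 Mb: peaks per window in the MYCN and MYC lists (top), the MYC-only share of list-only peaks with 95% Wilson intervals (middle, dashed line at the genome-wide 64.1%) and the median pair difference with its 95% interval (bottom). The dotted line marks 38 Mb, where the MYC-only share changes most; windows with under 10 list-only peaks or pairs are left out of their panel.

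Most list-only peaks were MYC-only in the middle stretch, a smaller majority were in the first, and no majority was in the last. They are not separate support for the stretches, since the border at 38 Mb is where their side changed most. From 12 to 38 Mb, 645 list-only peaks were MYC-only and 158 MYCN-only, a MYC-only share of 80.3% (77.4 to 82.9). MYC-only peaks outnumbered MYCN-only peaks in all 26 windows, with a median of 25 MYC-only peaks per window (range 13 to 38) and 5.5 MYCN-only peaks (range 3 to 12). On the other 23 chromosomes, MYC-only peaks outnumbered MYCN-only peaks in 897 of 1254 windows (71.5%). In the first 12 Mb the counts were 130 MYC-only and 87 MYCN-only, a share of 59.9% (53.3 to 66.2) whose interval contains the genome-wide 64.1%, and MYC-only peaks were the more numerous in 10 of 12 windows. The first stretch thus leaned to MYCN by its pairs, which are centred on the genome-wide median. Most of its list-only peaks were MYC-only, as they were genome-wide, so the majority and the centred pairs have unlike baselines. From 38 Mb to the end they were 340 and 360, a share of 48.6% (44.9 to 52.3), and MYCN-only peaks were the more numerous in 15 of 26 windows.

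The stretches differed more in the density of MYC peaks than in that of MYCN peaks. The MYC list had 45.5 peaks per Mb in the first stretch, 72.3 in the middle and 58.1 in the last. The MYCN list had 41.9, 54.6 and 59.4. The MYC list was thus 1.32 times as dense as the MYCN list in the middle stretch and 0.979 times as dense in the last. Peaks covered 29.2 kb per Mb in MYC against 20.2 kb in MYCN in the middle stretch, and 23.4 kb against 22.8 kb in the last.

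The shared shares of the lists moved in opposite ways. Of the MYCN peaks, 88.9% were shared in the middle stretch (87.1 to 90.4) and 76.0% in the last (73.8 to 78.1). Of the MYC peaks, 65.7% were shared in the middle stretch (63.5 to 67.8) and 76.9% in the last (74.6 to 78.9). The first stretch lay between for the MYCN list, at 82.7%, and near the last for the MYC list, at 76.2%.

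Peaks of the same pair were also wider in MYC in the middle stretch. The median log2 ratio of MYC over MYCN width was 0.19 there (0.17 to 0.22), against 0.031 in the first stretch (0.012 to 0.050) and 0.053 in the last (0.037 to 0.082). The genome-wide value was 0.095. The ratio was above 0 in all 26 middle windows, and on the other 23 chromosomes it was above 0 in 1058 of the 1235 windows with at least 10 pairs. Width and score come from the same called peaks and are not separate measurements.

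The pair differences of the middle stretch were larger among weak and intermediate sites than among the strongest. Over its 1168 pairs the median was -7.28 points (-8.52 to -6.07, quartiles -20.3 and 2.42), against 3.66 points over 392 pairs in the first stretch (2.76 to 5.29) and 2.52 over 1074 pairs in the last (1.65 to 3.20). In the middle stretch, 296 pairs (25.3%) were ranked over 20 points higher in MYC and 71 (6.08%) over 20 points higher in MYCN. In the last stretch these counts were 129 (12.01%) and 185 (17.2%).

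All pairs of the genome were divided into 4 equal classes by the mean of their percentiles. The middle stretch had medians of -10.2, -16.3 and -10.5 points in the classes from weakest to second strongest, where the genome had -1.32, -4.67 and -1.80. In the strongest class the median was -0.60 points (-1.68 to -0.019), against 1.83 genome-wide. Percentiles near 100 leave little room for a difference, so a smaller value in the strongest class also follows from the scale.

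**Figure D2:**
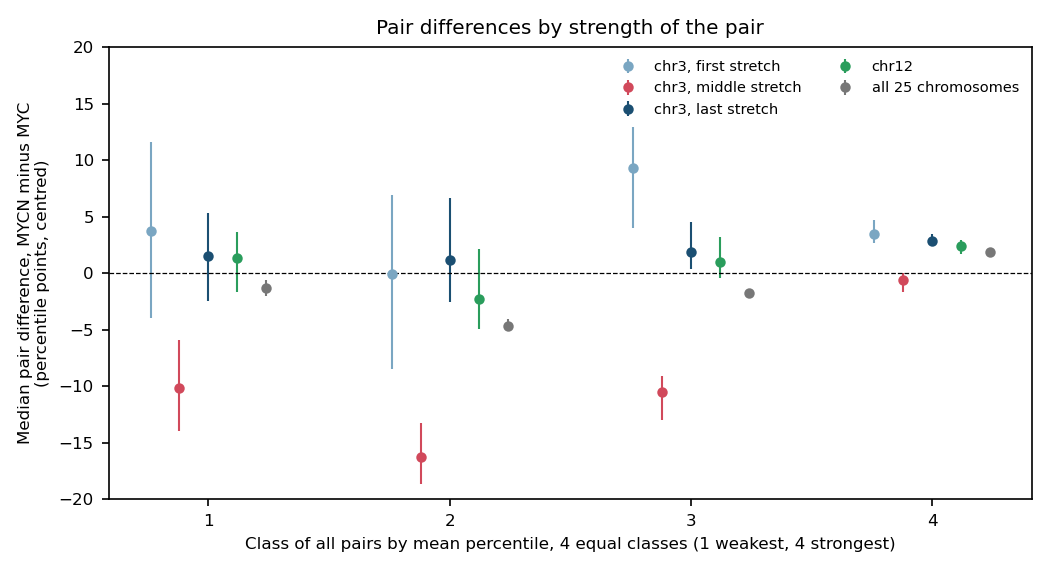
Median pair difference in 4 classes of pairs by mean percentile, for the 3 stretches of chromosome 3, for chromosome 12 and for all 25 chromosomes; bars are 95% intervals of the median. The middle stretch of chromosome 3 lies lowest in each class, from -16.3 points in the second to -0.60 in the fourth.

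The middle and last stretches differed in the same direction among the stronger list-only peaks. These are part of the list-only peaks whose side changed most at 38 Mb, so they are not separate support for that border. Counting list-only peaks at or above the 50th percentile of their list, the middle stretch held 86 MYC-only and 13 MYCN-only peaks, a share of 86.9% (78.8 to 92.2). The last stretch held 45 and 63, a share of 41.7% (32.8 to 51.1), and the genome-wide share was 64.5%. In fixed segments of 10 Mb the extreme was 20 to 30 Mb, where 38 peaks of this strength were MYC-only and 2 were MYCN-only. Among list-only peaks of any strength, the segments of chromosome 3 had MYC-only shares of 57.5%, 75.4%, 83.2%, 73.5%, 44.4% and 49.0% in order, and 63.2% in the last 3.27 Mb.

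At 38 Mb the side of the list-only peaks changed between neighbouring windows. This boundary was found as the place where the MYC-only share changed most, so a contrast of list-only peaks across it follows from the choice. Of the list-only peaks from 37 to 38 Mb, 25 were MYC-only and 11 MYCN-only, and from 38 to 39 Mb 6 were MYC-only and 18 MYCN-only. That second window had the lowest MYC-only share of the chromosome, 25.0%. From 39 to 40 Mb the counts were nearly even, with 12 MYC-only and 13 MYCN-only peaks. In bins of 250 kb, MYC-only peaks were the more numerous in 6 of the 8 bins from 36 to 38 Mb, and MYCN-only peaks were the more numerous in 5 of the 8 bins from 38 to 40 Mb. The MYC-only share was 69.1% over the first of these 2 Mb spans and 36.7% over the second. The pair difference and the width ratio had already moved towards the level of the last stretch before 38 Mb. The median pair difference was -7.12, -2.04, -3.32 and -0.22 points in the 4 windows from 34 to 38 Mb and 5.19 points in the next, and the log2 width ratio was 0.065 from 37 to 38 Mb. At 12 Mb the pair difference went from 3.31 (-3.22 to 5.72) to -2.02 points (-9.73 to 4.13) between neighbouring windows. Both intervals contain 0, and the change of sign follows from the choice of 12 Mb as the start of the windows below 0. When the search for the largest change was repeated before 38 Mb with no part under 5 Mb, it fell at 12 Mb for the pair difference, at 11 Mb for the width ratio and at 5 Mb for the MYC-only share. The result for the pair difference is not separate support, since the same pair differences set the border. The boundary at 5 Mb is the first that this search allowed, so the list-only peaks placed no border near 12 Mb.

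Some windows departed from their stretch. The window from 40 to 41 Mb held the most peaks of any window of chromosome 3, 87 in MYCN and 97 in MYC. Inside the stretch that leaned to MYCN, this window had 21 MYC-only and 8 MYCN-only peaks, while its pair difference was 0.54 points. The last windows of the chromosome, from 61 Mb to 63.3 Mb, had pair differences of -6.01, -0.78 and -7.59 points, and from 60 Mb on the median was -2.32 points over 187 pairs. The windows with the most one-sided pair differences towards MYC were adjacent, at 29 to 30 Mb (-17.7 points, 35 pairs), 30 to 31 Mb (-15.5 points, 49 pairs) and 31 to 32 Mb (-12.4 points, 49 pairs). Towards MYCN, the window at 43 to 44 Mb led with 12.1 points over 34 pairs, and it held 25 MYCN-only and 9 MYC-only peaks. The windows richest in MYC-only peaks relative to MYCN-only peaks lay at 33 to 34 Mb (34 against 4), 32 to 33 Mb (33 against 4) and 29 to 30 Mb (32 against 4).

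Steps of this kind were common over the genome, and that of chromosome 3 was near the upper end for the list-only peaks but not for the pairs. Each chromosome was divided where its parts differed most, at whole Mb and with no part under 10 Mb. On chromosome 3 the MYC-only share fell by 27.4 points at 38 Mb, from 76.0% to 48.6%, the second largest change of the 25 chromosomes. The other 23 had changes from 8.21 to 28.1 points, with a median of 18.4. The median pair difference changed at the same boundary, from -4.42 to 2.52 points, a step of 6.93 points (5.24 to 8.48) that ranked 9 of 25. With percentiles taken among the pairs only, the largest pair step of chromosome 3 lay instead at 10 Mb, the first boundary allowed. It had the opposite sign, -7.25 points. The other 23 chromosomes had steps from 2.73 to 11.4 points, with a median of 5.76. The levels of the middle stretch were not particular to chromosome 3. On chromosome 4 the MYC-only share was 83.0% before 22 Mb. Before 24 Mb its median pair difference was -8.13 points and its log2 width ratio 0.21. The boundaries of the MYC-only share and of the pair difference lay within 2 Mb of each other on 11 of the 25 chromosomes, chromosomes 3 and 12 included, and the steps had opposite signs on 22.

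**Figure D3:**
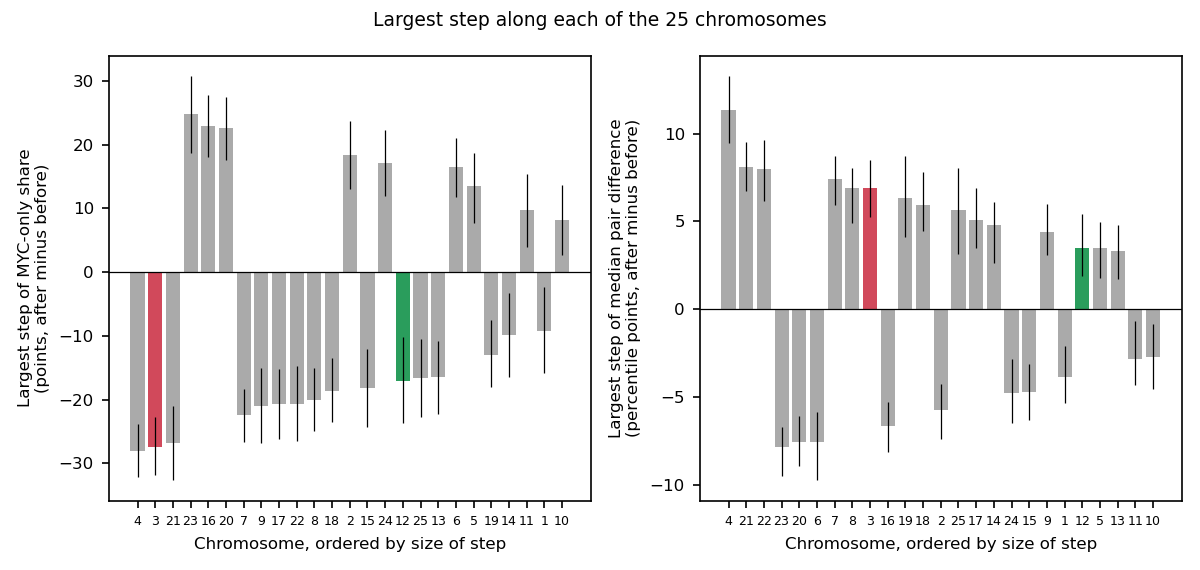
Largest step along each of the 25 chromosomes, as the value after the boundary minus the value before it, for the MYC-only share (left) and the median pair difference (right), ordered by size; bars show 95% intervals for a fixed boundary, which leave out the search for it. Chromosome 3 (red) ranks 2 for the share at -27.4 points and 9 for the pairs at 6.93 points, and chromosome 12 (green) ranks 16 and 21.

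Chromosome 12 had no stretch like the middle one of chromosome 3. Its longest series of windows with a pair difference below 0 was 3, from 26 to 29 Mb. Of the 50 windows with at least 10 pairs 35 lay above 0, against 658 of 1235 on the other 23 chromosomes. The longest series above 0 was 13 windows, from 37 to 50 Mb, near the median of 12 on the other 23 chromosomes (range 4 to 25). The standard deviation of the pair difference over windows was 5.01 points, rank 21 of 25, against 6.54 points on chromosome 3, rank 4. The MYC-only share of the windows ran from 21.4% to 82.4% with a median of 56.3%. It was over 80% in 2 of 51 windows, against 14 of 63 on chromosome 3 and 202 of 1240 on the other 23 chromosomes.

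The part of chromosome 12 from 39 Mb leaned to MYCN by its pairs, with a median difference above 0 in 11 of 12 windows. By list-only peaks the lean was not continuous. MYCN-only peaks were the more numerous in 8 windows and MYC-only peaks in 4, such as 43 to 44 Mb (13 MYC-only against 7). The MYC-only share changed most at 39 Mb, from 60.9% over 942 list-only peaks to 43.9% over 262, a fall of 17.0 points that ranked 16 of 25. The pair difference changed most at 37 Mb, from 0.93 to 4.41 points. After 39 Mb there were 49.6 MYCN and 46.8 MYC peaks per Mb. Among list-only peaks at or above the 50th percentile 24 were MYCN-only and 9 MYC-only. That is a MYC-only share of 27.3%, against 64.5% genome-wide. The boundary at 39 Mb was chosen by the list-only peaks, so their values on either side of it are a description. In fixed segments of 10 Mb the MYC-only share was 62.7%, 48.8%, 65.5%, 62.0% and 42.5%, so that the segment from 10 to 20 Mb, where 101 peaks were MYC-only and 106 MYCN-only, was another low. In the last 0.687 Mb, from 50 Mb on, the share was 69.6%, with 16 MYC-only against 7 MYCN-only peaks, and the pair difference was -0.11 points over 51 pairs. The window from 49 to 50 Mb had a pair difference of 0.46 points.

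**Figure D4:**
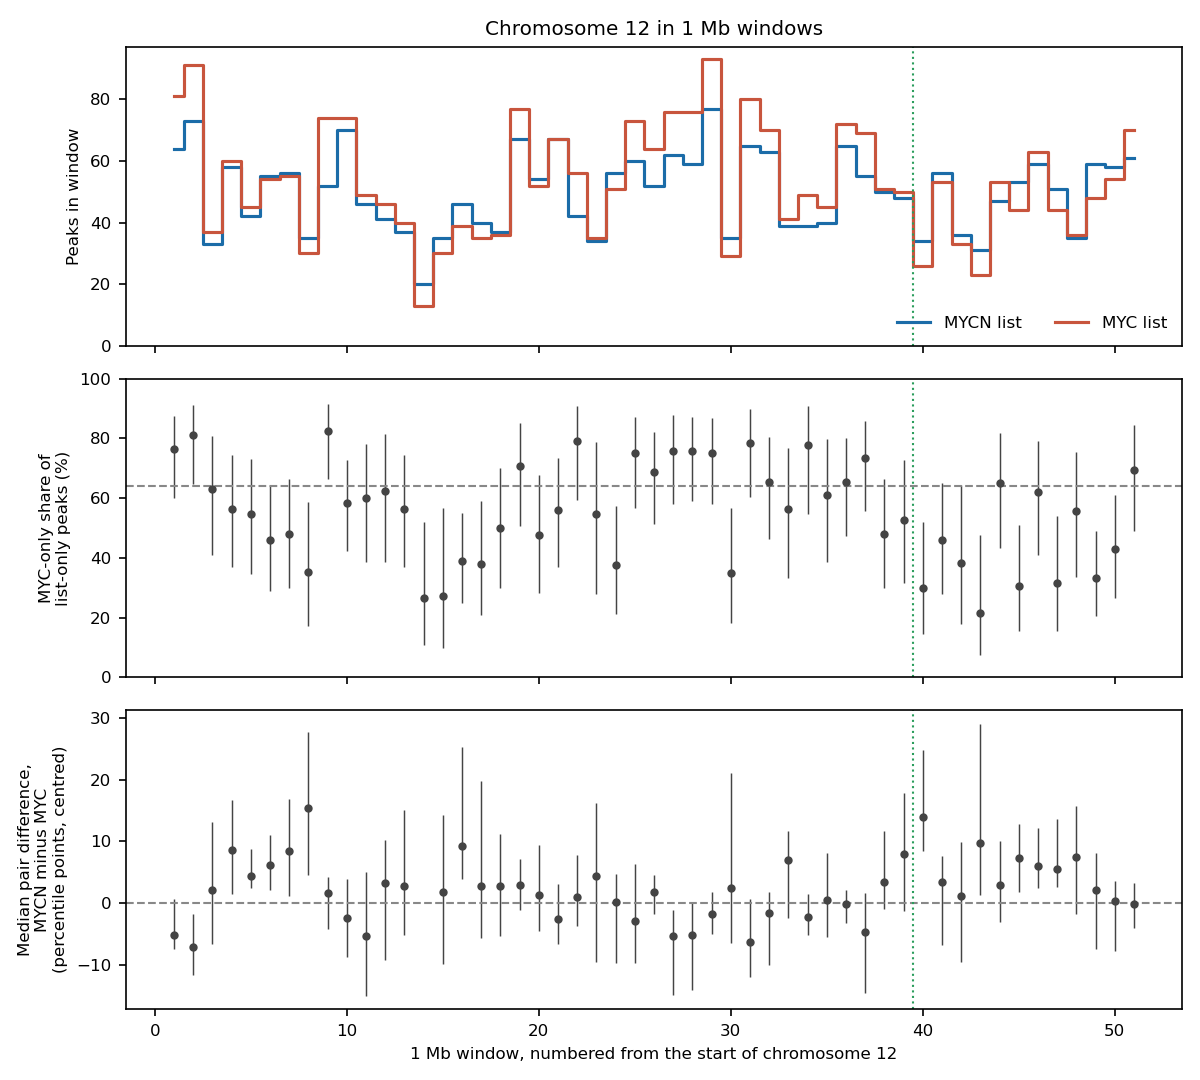
Chromosome 12 in windows of 1 Mb, with the panels, intervals and dashed lines as for chromosome 3; the dotted line marks 39 Mb. The window medians of the pair difference lie between -7.03 and 15.5 points, and 35 of 50 are above 0, against 658 of 1235 on the other 23 chromosomes.

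Among the most one-sided windows of chromosome 12, those that leaned to MYC held more peaks of both lists than those that leaned to MYCN. The window from 1 to 2 Mb, with 73 MYCN and 91 MYC peaks, had the lowest pair difference of the chromosome, -7.03 points over 63 pairs. It held 26 MYC-only and 6 MYCN-only peaks. The window from 28 to 29 Mb had the most peaks of the chromosome, 77 in MYCN and 93 in MYC, but was not among the most one-sided. The highest MYC-only share was in the window from 8 to 9 Mb, with 28 against 6 peaks, while its pair difference was 1.74 points. The window from 21 to 22 Mb, with 42 MYCN and 56 MYC peaks, had a share of 79.2% and a pair difference of 1.08 points. Towards MYCN, the window from 7 to 8 Mb had 35 MYCN and 30 MYC peaks and a pair difference of 15.5 points over 24 pairs. The window from 39 to 40 Mb had 34 and 26 peaks and 14.0 points over 20 pairs, and that from 42 to 43 Mb had 11 MYCN-only and 3 MYC-only peaks.

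Across windows, the measures moved together on both chromosomes. Over 63 windows of chromosome 3 with at least 10 list-only peaks and 10 pairs, the MYC-only share had a Spearman correlation of -0.77 with the pair difference and 0.79 with the width ratio. Over 50 windows of chromosome 12 the values were -0.63 and 0.57, and over 1224 windows of the other chromosomes -0.69 and 0.63. The densities of MYCN and MYC peaks had a correlation of 0.76 on chromosome 3, 0.91 on chromosome 12 and 0.81 elsewhere. These are descriptions across windows, which share the same pair of libraries, their depth and their peak calling.

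The highest 3 sites of each list on either chromosome were open in both libraries. On chromosome 3 all of them lay in the first or last stretch. On chromosome 3 the highest MYCN score, 946 at 10032049 to 10032559, ranked 22 in its list, and its MYC counterpart at 10032052 to 10032550 scored 1022 and ranked 37. The highest MYC score, 1165 at 60487963 to 60488671, ranked 8, and its MYCN counterpart scored 811 and ranked 74. The site at 1879671 to 1880386 was among the highest 3 of the chromosome in both lists, with scores of 846 in MYCN and 1043 in MYC. On chromosome 12 the highest site of both lists was the same. It spanned 38986928 to 38987559 and scored 912 in MYCN, and it spanned 38986926 to 38987528 and scored 1035 in MYC. It lies in the window just before the boundary at 39 Mb. The site at 12412319 to 12413083 on chromosome 12 was also among the highest 3 in both lists, with 869 in MYCN and 951 in MYC. Scores of the 2 lists need not be on the same scale, so ranks within each list are the safer reading.

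List-only sites were weaker, and few were strong. On chromosome 3, 21 of 605 MYCN-only and 17 of 1115 MYC-only peaks lay above the 75th percentile of their list. On chromosome 12 these were 8 of 515 and 7 of 689. The genome-wide share above this cut is not given here. At or above the 50th percentile MYC-only peaks were instead the more numerous, 150 against 90 on chromosome 3 and 70 against 67 on chromosome 12. The MYC-only shares were 62.5% and 51.1%, against 64.5% genome-wide. Over all 25 chromosomes, 2839 of 22517 MYC-only and 1562 of 12625 MYCN-only peaks lay there. At the 50th percentile, a small part of strong list-only peaks was therefore not particular to chromosomes 3 and 12. Above the 75th percentile this was not compared with the genome. Among those over 1 kb from the other list, the strongest MYC-only peak lay on chromosome 3 and spanned 9414126 to 9414769, scored 446 (percentile 92.4) and had its nearest MYCN peak 7339 bp away. On chromosome 12 a MYC-only peak at 3131044 to 3131636 scored 444, and one at 32009000 to 32009521 scored 409 with the nearest MYCN peak 24679 bp away. The strongest MYCN-only peak of this kind scored 379 (percentile 93.98) and spanned 8121888 to 8122266 of chromosome 12, and that of chromosome 3 scored 342 and spanned 44938566 to 44938902. The former lies inside the window from 8 to 9 Mb that had the highest MYC-only share of its chromosome.

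The shared sites with the most unequal ranks were taken in each direction, 3 per chromosome, so sites on both sides of the lean follow from the choice. The stretches of chromosome 3 were chosen by the pair differences, so the place of these sites inside or outside them is a description. Pairs with at least 1 member above the 75th percentile were considered. The widest gap towards MYC was on chromosome 3, inside the middle stretch, where a site at 31358957 to 31359369 had percentile 89.8 in MYC and its MYCN peak at 31359003 to 31359202 had percentile 7.55. A second lay there at 17560858 to 17561389, with percentile 95.03 in MYC and 25.1 in MYCN. The site at 53196070 to 53196620 lay in the last stretch, with percentiles of 78.2 and 3.18. The widest gaps towards MYCN on chromosome 3 lay outside the middle stretch, at 56130796 to 56131206 (79.99 in MYCN and 11.5 in MYC), at 46865622 to 46866032 (82.7 and 15.5) and at 8742590 to 8743231 (90.9 and 29.7). On chromosome 12 the gaps towards MYCN were wider, with percentiles of 90.8 and 8.57 at 19772850 to 19773228 and of 85.2 and 3.32 at 12468808 to 12469149. Towards MYC, the site at 24135070 to 24135417 on chromosome 12 had percentiles of 86.8 in MYC and 14.0 in MYCN.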

How the data were processed

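ATAC-seq was measured in 1 library of sorted tumour cells per transgene. Per the submitters' processing notes, alignment used Bowtie2 2.2.1 and danRer7, and peak calling used MACS2 2.1.0. Their settings, duplicate handling, Tn5 shift and any control are not given in the sources used here. For each library the authors deposited a list of peaks with a whole-number score, whose scale no header states and whose smallest value is 13 in both lists. The score was used only for ranks within its list. Read depth is unknown, and the number of peaks called depends on it.

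Overlaps and ranks were obtained with Python 3.11.15, numpy 2.4.6, pandas 2.3.3 and scipy 1.17.1, tested on simulated lists with a known step, and counts were checked against bedtools 2.31.1. Peaks were placed in windows by their midpoint. Tied scores shared their mean rank. Shares have Wilson intervals and medians order-statistic intervals. Coordinates count from 1. Named sites were the 3 highest of each list per chromosome, the 3 highest list-only sites over 1 kb from the other list, and the 3 most unequal pairs in each direction; windows were the 3 lowest and highest of each measure with at least 10 items. Those described were taken from these, and the windows beside 12 and 38 Mb, those at the chromosome ends and the 250 kb bins were added after the values were seen. The chromosomes and measures were chosen with earlier results of these data known. No sequence of danRer7 was used here. Figures were drawn with matplotlib 3.10.9.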

Additional observations from a re-analysis of the deposited data

How the results depend on the processing

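Of 74 values under other settings, 55 stayed within the counting interval of the main value, 17 moved beyond it and 2 changed sides. Of these 2, one was a ratio of peak counts that crossed 1. The other was a pair step of opposite sign that lay at another boundary. Keeping the highest 75% of each list by score and merging peaks within 100 bp moved none of the 14 values computed under each, and neither did offsetting the boundaries by 500 kb or allowing 5 Mb on either side. These values do not include the positions of the boundaries, some of which moved. On chromosome 12 the boundary of the MYC-only share lay at 37 Mb with the highest 75% and at 37.5 Mb with the offset, in place of 39 Mb. Its pair boundary lay at 39 and 38.5 Mb, in place of 37 Mb. It lay at 38 Mb with merging or with the MYC list cut to the length of the MYCN list. On chromosome 3 the pair boundary lay at 37 Mb with the highest 75% or with merging, in place of 38 Mb. It also lay at 37 Mb with reciprocal overlap of 50% and with the MYC list cut to the length of the MYCN list. With the offset it lay at 37.5 Mb, and it stayed at 38 Mb with 5 Mb allowed on either side. With reciprocal overlap of 50%, the shared shares were 73.0% (MYCN) and 64.2% (MYC) on chromosome 3 and 72.8% and 68.4% on chromosome 12, the MYC-only share of chromosome 3 was 60.2%, and its step was -19.6 points. Counting peaks within 500 bp as shared gave 84.5% and 74.9% on chromosome 3 and 81.3% and 77.3% on chromosome 12. Dropping the weakest MYC peaks until both lists were equally long gave 78.1% and 75.7% shared on chromosome 3 and 75.6% and 80.2% on chromosome 12, and MYC-only shares of 52.9% and 43.1%. It also gave MYC over MYCN ratios of 1.01 on chromosome 3 and 0.934 on chromosome 12, the second of which changed sides; equal lengths hold the genome-wide ratio at 1 by construction. With percentiles taken among the pairs only, the largest pair step of chromosome 3 was -7.25 points at 10 Mb, in place of 6.93 at 38 Mb. The boundary at 10 Mb is the first that the search allowed. Its nearness to the lower border of the middle stretch is therefore partly set by that limit. Under all 6 settings that change peaks, overlaps or percentiles, the middle stretch of chromosome 3 had MYC-only shares from 70.8% to 82.3% and pair differences from -8.35 to -6.46 points, the first stretch 42.9% to 60.1% and 3.30 to 4.70 points, and the last stretch 36.0% to 48.8% and 2.17 to 2.60 points. The lowest share of the first stretch, with more MYCN-only than MYC-only peaks, came with the MYC list shortened. Shortening removed MYC peaks from the whole genome, not only from these chromosomes. Genome-wide shares under the other settings are not given here, so the shared and MYC-only shares above lack a baseline under their own setting. The width ratio, added after seeing the data, had its largest step on chromosome 3 at 11 Mb, from 0.022 to 0.13 on the log2 scale. Leaving out a replicate was not an option. No paired analysis was possible because there was 1 library per transgene. Every peak count is limited by a read depth that is not known.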
